A study of Bos taurus with 7 samples.

Results

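Autophagy is the route by which a cell wraps part of its cytoplasm in a double membrane, the autophagosome, and delivers it to the lysosome for breakdown. Mitophagy is the same route applied to mitochondria. A kinase complex around ULK1 starts the process, a lipid kinase complex around BECN1 and PIK3C3 marks the membrane, conjugation enzymes attach ATG8 proteins (LC3 and GABARAP) to it, and cargo receptors tie the load to those proteins. Luteal cells are rich in mitochondria, where progesterone synthesis begins, and in lipid droplets. In mice, loss of Becn1 from the luteal lineage lowers progesterone.

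The machinery was taken here as 40 genes, chosen by symbol and sorted into 9 roles. All 40 were found among the 19539 entries of the authors' deposited table, each on 1 entry, and all 40 are among the 19485 entries that the authors tested. The table compares whole corpus luteum of cattle, the progesterone-secreting gland that forms from the ovulated follicle, between 3 libraries from day 4 and 4 from day 6 after estrus. Every cow was synchronised alike, with a progesterone device (CIDR) for 7 days, 25 mg of the prostaglandin PGF2A and 86 mcg of GnRH, and the labels otherwise call the cows untreated. The labels give no breed, age or genotype. Per the labels, the glands of day 4 came from slaughtered cows and glands from after day 6 by removal through the vaginal wall. The route on day 6 itself is not given, so day and collection route cannot be told apart. The labels do not say whether the libraries of a day are from separate cows, so p-values measure the spread between these samples, which may be technical. The title of the study names the acquisition of luteolytic capacity, the ability of the gland to regress after prostaglandin.

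The authors' deposited table holds 1 mean level per day in TPM, a share of all transcripts scaled for gene length, and 1 Wald test per gene. It holds no value per library, so the spread is known only through the standard error, and neither depth nor the number of libraries behind a direction can be read from it. Log2 fold changes below are day 6 over day 4, computed as the deposited statistic times its standard error and given ± that error. Calls rest on the authors' Benjamini-Hochberg adjusted p at a threshold of 0.05. Relative to log2 ratios of mean TPM these fold changes were shifted upward by 0.21, the median over 10599 entries with a mean of 5 TPM or more. Mitochondrially encoded genes, all 13 called higher, made up 10.3% of the mean TPM on day 4 and 29.2% on day 6. Each result was therefore also read on the TPM scale, where 0.21 is taken off, and on the TPM scale without mitochondrially encoded genes, where 0.13 is added to the authors' scale.

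The luteal markers STAR, HSD3B1, CYP11A1, LHCGR, PTGFR and OXT were abundant on both days, from 68.5 TPM upward in the authors' deposited table. Their summed mean TPM was 12693 on day 4 and 22207 on day 6, with 6 of 6 higher and 1 called, STAR. The median log2 fold change of these 6 was 1.36, with a median standard error of 1.02. Some markers of other cells moved too. Summed mean TPM of 6 macrophage markers was 78.3 on day 4 and 35.2 on day 6, with 6 of 6 lower and 2 called. The sum of 5 T cell markers was 14.8 and 5.07, with 5 of 5 lower and 1 called. For 6 pericyte and smooth muscle markers it was 2256 and 593, with 5 log2 fold changes below 0 and 4 called lower. For 5 fibroblast markers the sum was 8812 and 6973, with 2 called lower. The log2 fold changes of these 5 were below 0 for 3 and above 0 for 2, with a median of -0.04. The 5 endothelial markers summed to 202 and 181, with none called and 1 at an unadjusted p under 0.05. Of the red cell markers, 3 were tested and summed to 0.413 and 0.931 TPM. In whole tissue, fewer cells of a type and less RNA per cell cannot be told apart, and the part of these cells in the results below was not tested.

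Few genes of the machinery were called different between the days. Among the 40 genes, 1 was called higher on day 6, ATG2B, against a background of 4.12% of all entries tested, and 3 were called lower, ATG13, ATG14 and TFEB, against a background of 10.4%. Both shares are near the background, so the number of calls does not set these genes apart. On the TPM scale 1 was called higher and 8 lower (background 1.53% and 19.7%), and without mitochondrially encoded genes 7 and 1 (background 9.48% and 8.19%). ATG2B and ATG13 were called on all 3 scales. Among entries with a mean of 1 TPM or more the same 4 genes were called, against 5.96% higher and 12.2% lower, and against a fold of 1.5 none of the 40 was, beside 0.231% and 2.35% of all entries, with 1 at an unadjusted p under 0.05. The Wald test with p from a t distribution of 5 degrees of freedom, which 7 libraries leave, called 0 of the 40 genes. It called 0 of all entries too, so that result cannot set the 40 genes apart. By that distribution 5 of the 40 and 3133 of all entries had an unadjusted p under 0.05. In the authors' Wald test 11 of 40 had an unadjusted p under 0.05, 6 higher and 5 lower, beside 28.5% of all entries. Of all entries 11% were higher and 17.5% lower at that threshold. The median log2 fold change of the 40 genes was 0.07, from -1.44 to 0.76, beside -0.04 over all entries tested and 0.06 over the 11919 entries within the same range of mean TPM. In the authors' deposited table the 40 genes summed to 1897 TPM on day 4 and 1562 TPM on day 6. The entries within the same range of mean TPM summed to 391626 and 359361 TPM. The median log2 ratio of mean TPM was -0.14 for the 40 genes and -0.14 for those entries.

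The median standard error of the 40 genes was 0.17, from 0.10 to 0.41, beside 0.24 over the entries within the same range of mean TPM. For 33 of the 36 the 95% Wald interval lay within a 2-fold change in either direction, and for 24 it lay within a 1.5-fold change. Of all 40 genes, the number within a 1.5-fold change was 24 on the authors' scale, 23 on the TPM scale and 19 without mitochondrially encoded genes. The 3 genes with a wider interval were UVRAG, MAP1LC3A and OPTN.

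**Figure D1:**
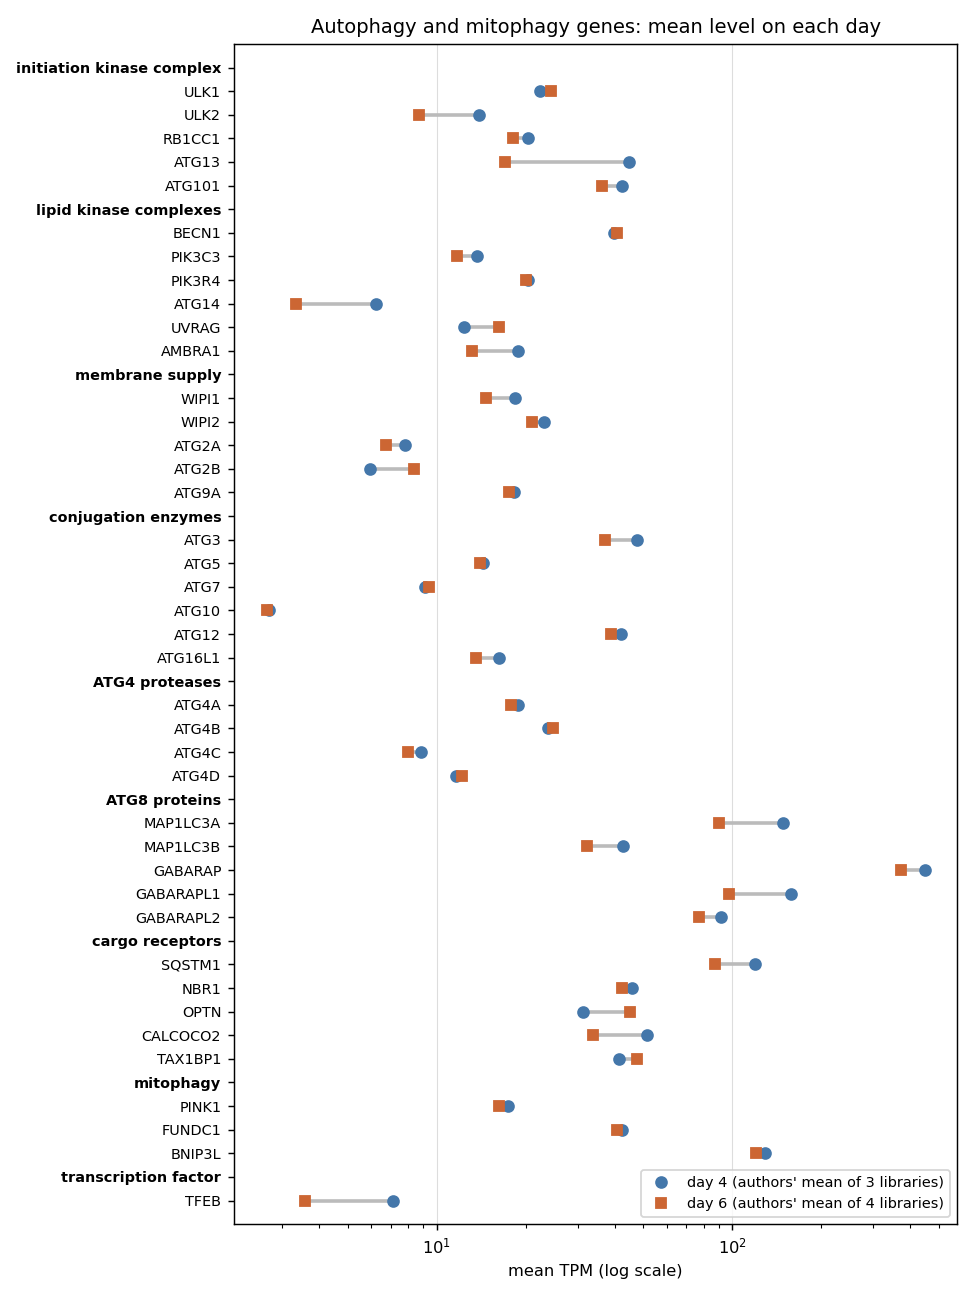
Mean level of each of the 40 genes in TPM (log axis) on day 4 (circles, authors' mean of 3 libraries) and day 6 (squares, authors' mean of 4 libraries), sorted by role; the table gives no value per library, so no error bars are drawn. GABARAP stands highest and ATG10 lowest on both days, and the widest gaps are those of ATG13, TFEB and ATG14.

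Of the 5 genes of the initiation complex 1 was called. ATG13, the adaptor that holds ULK1 in its complex, had a mean of 44.8 TPM on day 4 and 17.0 TPM on day 6 in the authors' deposited table. It fell by 1.44 ± 0.41 on the log2 scale (adjusted p = 0.00667 in the authors' deposited table), with a 95% Wald interval of -2.24 to -0.64, and the call held on both other scales. Its standard error was the widest of the 40 genes. Its partner ATG101, which stabilises ATG13, stood at 42.2 and 36.4 TPM, with a log2 fold change of -0.01 ± 0.19 and an adjusted p of 0.974 in the authors' deposited table. ATG101 and ATG13 were thus at nearly equal levels on day 4, a ratio of TPM of 0.94, and at a ratio of 2.14 on day 6. RB1CC1, the scaffold also known as FIP200, stood at 20.3 and 18.1 TPM (log2 0.01 ± 0.11 from the authors' deposited table), an interval of -0.21 to 0.24.

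The fold changes of the 2 kinases had opposite signs and neither was called. ULK1, the main initiating kinase, stood at 22.4 and 24.3 TPM, with a log2 fold change of 0.34 ± 0.13 and an adjusted p of 0.0613 in the authors' deposited table. Its relative ULK2 stood at 13.9 and 8.70 TPM, with a log2 fold change of -0.46 ± 0.26 and an adjusted p of 0.229 in the authors' deposited table. The ratio of ULK1 to ULK2 in TPM was 1.61 on day 4 and 2.80 on day 6. ULK1 was called higher on the TPM scale without mitochondrially encoded genes (adjusted p = 0.00612 by the Wald test), and ULK2 lower on the TPM scale (adjusted p = 0.0476). That difference between kinases was not tested, since the table gives no covariance between genes.

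The lipid kinase makes a phosphoinositide that recruits later factors, and it exists in alternative complexes. BECN1, PIK3C3 and PIK3R4 form the shared core. ATG14 directs the core to new autophagosomes, and UVRAG takes its place in the complex that acts on endosomes and late in autophagy. ATG14 fell from 6.23 to 3.36 TPM in the authors' deposited table, a log2 fold change of -0.78 ± 0.29 (adjusted p = 0.0458), and that call was lost on the TPM scale without mitochondrially encoded genes (log2 -0.66, adjusted p = 0.0907 by the Wald test). UVRAG stood at 12.4 and 16.3 TPM, with a log2 fold change of 0.62 ± 0.27 and an adjusted p of 0.0978 in the authors' deposited table, so it was not called. UVRAG passed the threshold as higher on the TPM scale without mitochondrially encoded genes (adjusted p = 0.0353 by the Wald test). The ratio of UVRAG to ATG14 in TPM was 1.99 on day 4 and 4.86 on day 6, a difference of 1.41 between their log2 fold changes that was not tested.

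None of the core subunits was called on the authors' scale. BECN1, the regulatory subunit, stood at 39.9 and 40.7 TPM (log2 0.26 ± 0.17 from the authors' deposited table). PIK3C3, the catalytic subunit VPS34, stood at 13.7 and 11.8 TPM, with a log2 fold change of -0.08 ± 0.13 and an adjusted p of 0.725 there. PIK3R4, the scaffold VPS15, stood at 20.3 and 20.1 TPM in the authors' deposited table (log2 0.20 ± 0.10, adjusted p = 0.175), and it had the smallest standard error of the 40 genes. On the TPM scale without mitochondrially encoded genes PIK3R4 was called higher (adjusted p = 0.0153 by the Wald test). AMBRA1, which binds BECN1 and promotes initiation, stood at 18.8 and 13.2 TPM (log2 -0.30 ± 0.25 with an adjusted p of 0.436 from the authors' deposited table). All 4 intervals lay within a 2-fold change.

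Among the genes that supply membrane, ATG2B was the only 1 of the 40 called higher. ATG2 proteins carry lipid from the endoplasmic reticulum to the growing membrane. ATG2B rose from 5.94 to 8.37 TPM in the authors' deposited table, a log2 fold change of 0.73 ± 0.16 (adjusted p = 0.000309), with a 95% Wald interval of 0.41 to 1.04. The call held on the TPM scale (log2 0.51, adjusted p = 0.0123) and on the TPM scale without mitochondrially encoded genes (log2 0.85, adjusted p = 1.38e-05) by the Wald test. Its paralogue ATG2A stood at 7.83 and 6.76 TPM, with a log2 fold change of -0.01 ± 0.16 and an adjusted p of 0.984 in the authors' deposited table. ATG2B was the lower of the pair on day 4, at a ratio of 0.758 to ATG2A, and the higher on day 6, at 1.24, and the difference of their changes was not tested. In the annotation used for names, ATG2B overlaps GSKIP, whose log2 fold change was 0.32 ± 0.16 (adjusted p = 0.153 in the authors' deposited table). The labels do not say whether reads were counted by strand.

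None of the other membrane genes was called. ATG9A, the membrane-spanning scramblase carried by small vesicles, stood at 18.2 and 17.6 TPM in the authors' deposited table (log2 0.16 ± 0.13). WIPI2, which binds the phosphoinositide and recruits the conjugation enzymes, stood at 23.0 and 21.1 TPM (log2 0.09 ± 0.11 from the authors' deposited table). WIPI1, of the same family, stood at 18.4 and 14.7 TPM in the authors' deposited table (log2 -0.11 ± 0.23). WIPI1 overlaps ARSG in the annotation used for names, and ARSG was called lower (log2 -0.93 ± 0.33 with an adjusted p of 0.0417 from the authors' deposited table).

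**Figure D2:**
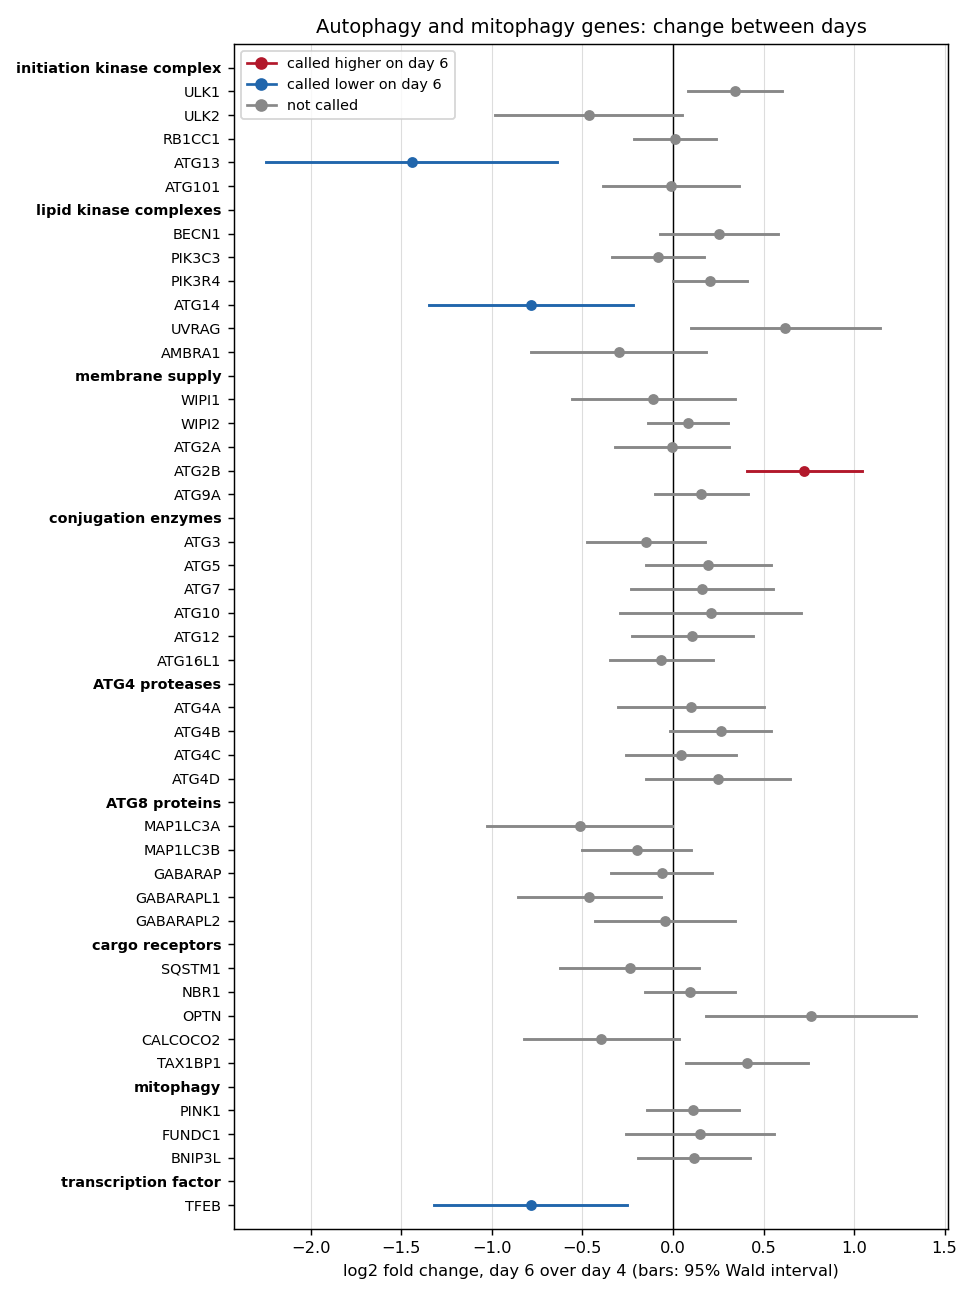
Log2 fold change of each of the 40 genes, day 6 over day 4, by role; points are the deposited statistic times its standard error and bars are 95% Wald intervals. ATG2B is called higher (red) and ATG13, ATG14 and TFEB lower (blue), while 33 of the 36 grey intervals lie between -1 and 1.

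No gene of the conjugation enzymes or of the ATG4 proteases was called on the authors' scale. None of these 10 genes had an unadjusted p under 0.05 in the authors' deposited table, beside 28.5% of all entries. Conjugation resembles the attachment of ubiquitin. ATG7 is the activating enzyme, ATG3 and ATG10 are the carrier enzymes, and ATG12 joined to ATG5 forms with ATG16L1 the complex that places ATG8 proteins on the membrane. ATG3 stood at 47.5 and 37.0 TPM, with a log2 fold change of -0.15 ± 0.17 in the authors' deposited table. ATG12 stood at 42.1 and 38.8 TPM (log2 0.11 ± 0.17 from the authors' deposited table). ATG5, its acceptor, stood at 14.3 and 14.0 TPM there, with a log2 fold change of 0.20 ± 0.18 and the smallest adjusted p of the 6 enzymes, 0.491.

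ATG16L1 stood at 16.3 and 13.6 TPM, with a log2 fold change of -0.06 ± 0.14 and the largest adjusted p of these enzymes, 0.818, in the authors' deposited table. ATG7 stood at 9.17 and 9.45 TPM in the authors' deposited table (log2 0.16 ± 0.20). ATG10 was the least abundant of the 40 genes, at 2.71 and 2.67 TPM (log2 0.21 ± 0.25 from the authors' deposited table). It overlaps RPS23, a ribosomal protein gene at 1463 and 638 TPM, in the annotation used for names, so its value is uncertain where reads were counted without strand. Of these 6 genes, 5 had an interval within a 1.5-fold change.

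ATG4 proteases trim newly made ATG8 proteins so that they can be conjugated, and later cut them off the membrane. The 4 genes together stood at 63.2 TPM on day 4 and 62.8 TPM on day 6 in the authors' deposited table. ATG4B, the most active on LC3, was the highest of them, at 23.9 and 24.8 TPM (log2 0.26 ± 0.14 with an adjusted p of 0.203 from the authors' deposited table). On the TPM scale without mitochondrially encoded genes ATG4B was called higher (adjusted p = 0.0398 by the Wald test). ATG4A stood at 18.8 and 17.8 TPM there, ATG4D at 11.6 and 12.2 TPM, and ATG4C at 8.85 TPM on day 4 and 0.904 times that on day 6. The order of the 4 was the same on both days. ATG4D overlaps KRI1, at 11.8 and 10.1 TPM, in the annotation used for names. The largest adjusted p was that of ATG4C, 0.886, with a log2 fold change of 0.05 ± 0.15 in the authors' deposited table.

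All 5 ATG8 genes had a lower mean TPM on day 6, none was called, and without mitochondrially encoded genes the log2 fold changes of GABARAP and GABARAPL2 were above 0 (0.064 and 0.084). ATG8 proteins are the ubiquitin-like tags that mark the autophagosome and bind cargo receptors. A lower mean TPM on day 6 was found for 31 of the 40 genes and for 12738 of the 19485 entries tested. The summed level of the 5 was 888 TPM on day 4 and 668 TPM on day 6 in the authors' deposited table. On the authors' scale the median log2 fold change of the 5 was -0.20, beside -0.04 over all entries tested. Over entries within the 40 genes' range of mean TPM it was 0.06. At an unadjusted p under 0.05 in the authors' Wald test 2 of the 5 were lower, beside 17.5% of all entries. On the TPM scale MAP1LC3A, MAP1LC3B and GABARAPL1 were called lower (background 19.7% of all entries). On the TPM scale without mitochondrially encoded genes none of the 5 was called.

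GABARAP was the most abundant of the 40 genes. It stood at 447 and 371 TPM in the authors' deposited table, with a log2 fold change of -0.06 ± 0.14 (adjusted p = 0.822) and an interval of -0.34 to 0.22. GABARAPL1 had the smallest adjusted p of the family, 0.103, at 158 and 97.4 TPM and a log2 fold change of -0.46 ± 0.20 in the authors' deposited table. GABARAPL2, also called GATE-16, had the largest adjusted p, 0.916, at 91.7 and 76.9 TPM and a log2 fold change of -0.04 ± 0.20 there. The 3 GABARAP genes thus held most of the ATG8 transcripts on either day.

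Of the LC3 genes, MAP1LC3A was the more abundant. It stood at 149 and 90.3 TPM in the authors' deposited table, with a log2 fold change of -0.52 ± 0.26 (adjusted p = 0.169). MAP1LC3B, the form most used as a laboratory marker of autophagosomes, was the lowest of the 5 at 42.7 and 32.2 TPM (log2 -0.20 ± 0.15 from the authors' deposited table). The ratio of MAP1LC3A to MAP1LC3B in TPM was 3.48 on day 4 and 2.81 on day 6. GABARAP made up 50.3% of the summed ATG8 TPM on day 4 and 55.6% on day 6, GABARAPL1 17.8% and 14.6%, and MAP1LC3A 16.7% and 13.5%. Without values per library these shares have no error, and their difference was not tested.

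**Figure D3:**
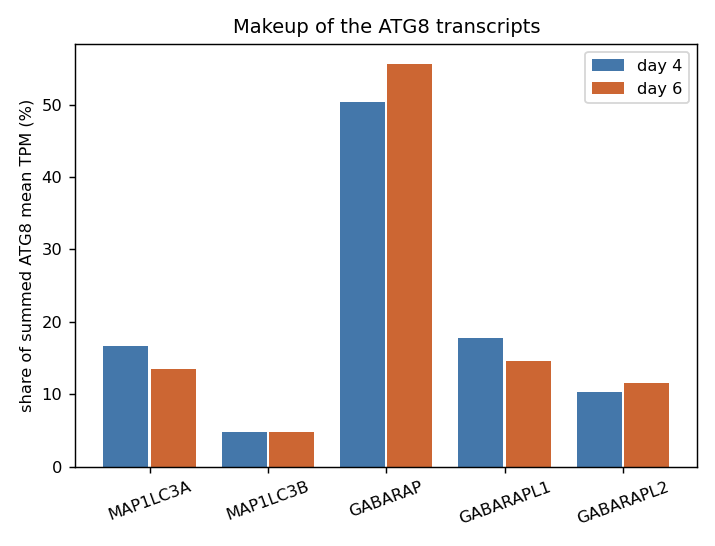
Share of each ATG8 gene in the summed mean TPM of the 5 genes on day 4 and day 6, from the authors' means, with no error because no value per library is given. GABARAP holds 50.3% and 55.6%, and MAP1LC3B the smallest share on both days.

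Cargo receptors bind ubiquitin on the load and ATG8 on the membrane. None of the 5 was called, and their means leaned in both directions. OPTN, optineurin, which acts in mitophagy and in clearing bacteria, stood at 31.2 and 45.1 TPM in the authors' deposited table, with a log2 fold change of 0.76 ± 0.30 (adjusted p = 0.0632) and an interval of 0.18 to 1.34. TAX1BP1, a related receptor, stood at 41.4 and 47.6 TPM there (log2 0.41 ± 0.17, adjusted p = 0.0884). OPTN and TAX1BP1 passed the threshold on the TPM scale without mitochondrially encoded genes, with adjusted p of 0.0233 and 0.0175 by the Wald test.

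CALCOCO2, the receptor NDP52, stood at 51.4 and 33.8 TPM, with a log2 fold change of -0.40 ± 0.22 (adjusted p = 0.213 in the authors' deposited table). CALCOCO2 passed the threshold as lower on the TPM scale (adjusted p = 0.0284 by the Wald test). CALCOCO2 was thus above OPTN and TAX1BP1 on day 4 and below both on day 6. The ratio of OPTN to CALCOCO2 in TPM was 0.606 on day 4 and 1.34 on day 6, a difference of 1.16 between their log2 fold changes that was not tested. SQSTM1, or p62, the most abundant receptor on both days, stood at 119 and 87.4 TPM in the authors' deposited table (log2 -0.24 ± 0.19, adjusted p = 0.433). NBR1, its partner, had the largest adjusted p of the 5, 0.663, at 45.7 and 42.3 TPM and a log2 fold change of 0.10 ± 0.13 there. SQSTM1 made up 41.2% of the receptors' summed TPM on day 4 and 34.1% on day 6, and OPTN 10.8% and 17.6%. In the annotation used for names SQSTM1 overlaps 4 other genes, among them MGAT4B at 55.0 and 58.8 TPM.

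None of the 3 genes that mark mitochondria for removal was called, and their log2 fold changes were above 0 on the authors' scale and below 0 on the TPM scale. PINK1, the kinase that accumulates on damaged mitochondria, stood at 17.5 and 16.2 TPM in the authors' deposited table (log2 0.11 ± 0.13, adjusted p = 0.610). FUNDC1, a receptor of the outer membrane linked to hypoxia, stood at 42.5 and 40.6 TPM (log2 0.15 ± 0.21 with an adjusted p of 0.682 from the authors' deposited table). BNIP3L, or NIX, the outer membrane receptor that clears mitochondria from maturing red cells, stood at 129 and 121 TPM, behind GABARAP alone on day 6, with a log2 fold change of 0.12 ± 0.16 there. On the authors' scale all 3 intervals lay within a 1.5-fold change, and BNIP3L stood at 7.41 times the level of PINK1 in TPM on day 4 and 7.45 times on day 6. The mitochondrially encoded transcripts over the same days had a median log2 fold change of 1.81.

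TFEB, the transcription factor that switches on lysosomal and autophagy genes, fell. Its mean was 7.14 TPM on day 4 and 3.58 TPM on day 6 in the authors' deposited table, a log2 fold change of -0.79 ± 0.27 (adjusted p = 0.0319) with an interval of -1.32 to -0.25. The call held on the TPM scale and was lost on the TPM scale without mitochondrially encoded genes (log2 -0.66, adjusted p = 0.0705 by the Wald test). TFEB was among the 3 lowest of the 40 genes in mean level, with ATG10 and ATG14. TFEB overlaps a long non-coding RNA in the annotation used for names.

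**Figure D4:**
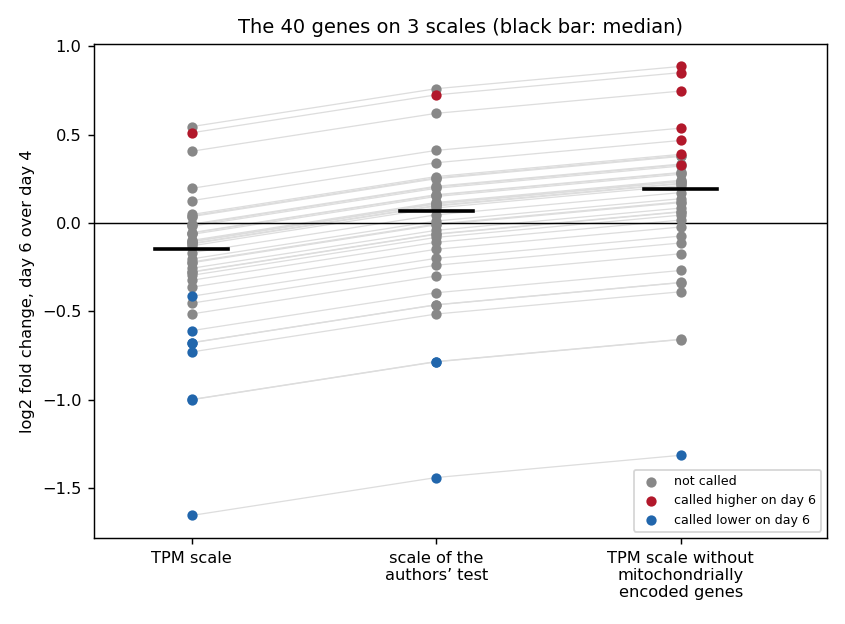
Log2 fold changes of the 40 genes, day 6 over day 4, on the TPM scale, on the scale of the authors' test and on the TPM scale without mitochondrially encoded genes; lines join a gene, colours mark an adjusted p under 0.05 on that scale, and black bars are medians. The median goes from -0.15 through 0.07 to 0.19, while ATG13 stays called lower and ATG2B higher on all 3.

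The genes that act around the machinery were read from 7 lists of 108 genes. Together 11 were called higher, against a background of 4.12%, and 6 lower, against a background of 10.4%. Their median log2 fold change was 0.19, beside -0.04 over all entries, and it was -0.03 on the TPM scale, beside -0.26. On the TPM scale 2 of the 11 rises were called, those of DEPTOR and RILP. All 6 falls were called on the TPM scale, and those of CALCOCO1, MITF and PPARGC1A also on the TPM scale without mitochondrially encoded genes.

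Transcriptional control was the list with the most falls, 3 of 8 genes, beside 10.4% of all entries called lower. MITF, a close relative of TFEB, fell from 16.7 to 4.35 TPM in the authors' deposited table, a log2 fold change of -1.74 ± 0.49 (adjusted p = 0.00581). TFE3, the remaining member of the family in the list, was not called, at 27.4 and 30.3 TPM (log2 0.36 ± 0.17 with an adjusted p of 0.147 from the authors' deposited table). TFE3 therefore made up 53.5% of the summed TPM of TFEB, MITF and TFE3 on day 4 and 79.3% on day 6. MITF also acts in mast cells and osteoclasts, and CTSB is abundant in macrophages. The summed macrophage markers were 78.3 and 35.2 TPM over the same days, and their part in these falls was not tested.

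FLCN, folliculin, which controls whether TFEB and TFE3 enter the nucleus, fell from 13.9 to 7.16 TPM in the authors' deposited table (log2 -0.76 ± 0.25, adjusted p = 0.0228). Its partners FNIP1 and FNIP2 were not called, at 9.98 and 10.6 TPM and at 5.02 and 5.86 TPM. PPARGC1A, the coactivator PGC-1alpha that drives mitochondrial biogenesis, fell at a very low level, from 0.221 to 0.0550 TPM in the authors' deposited table (log2 -2.41 ± 0.73, adjusted p = 0.0129). FOXO1 and FOXO3, forkhead factors that induce autophagy genes, were not called (log2 -0.07 ± 0.20 and -0.44 ± 0.34 from the authors' deposited table).

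Nutrient and energy sensing held 5 rises and 1 fall among 21 genes, beside 4.12% and 10.4% of all entries. The kinase mTOR holds autophagy back when nutrients are ample. MTOR rose from 9.70 to 13.4 TPM in the authors' deposited table (log2 0.69 ± 0.20, adjusted p = 0.00623). RPTOR, its scaffold in complex 1, rose from 7.69 to 9.56 TPM (log2 0.53 ± 0.18 with an adjusted p of 0.0267 from the authors' deposited table). AKT1S1 and DEPTOR, both inhibitors of mTOR, rose as well, AKT1S1 from 24.6 to 32.6 TPM (log2 0.62 ± 0.20) and DEPTOR from 10.9 to 25.4 TPM (log2 1.48 ± 0.31 with an adjusted p of 7.72e-05 from the authors' deposited table).

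PRKAA1, a catalytic subunit of the energy sensor AMPK that activates ULK1, rose from 15.7 to 19.3 TPM in the authors' deposited table (log2 0.44 ± 0.15, adjusted p = 0.0380). The calls of MTOR, RPTOR, AKT1S1 and PRKAA1 were lost on the TPM scale, with adjusted p from 0.0629 for MTOR to 0.344 for PRKAA1 by the Wald test. PRKAA1 was also lost when fold changes were centred on the median entry (adjusted p = 0.0562). RRAGD, a GTPase that brings mTOR complex 1 to the lysosome, fell from 5.30 to 2.22 TPM (log2 -1.09 ± 0.39 with an adjusted p of 0.0361 from the authors' deposited table). RRAGA and RRAGC, of the same GTPase complex, were not called (log2 0.13 ± 0.20 and 0.15 ± 0.16 there).

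Of 16 genes of fusion with lysosomes 3 rose and 0 fell in the authors' Wald test, beside 4.12% and 10.4% of all entries. At an unadjusted p under 0.05 there were 5 higher and 1 lower, beside 11% and 17.5% of all entries. RILP, an effector of RAB7 that ties late endosomes to the dynein motor, rose from 6.77 to 12.2 TPM in the authors' deposited table (log2 1.06 ± 0.26, adjusted p = 0.000970). PLEKHM1, an adaptor between RAB7, the tethering complex HOPS and ATG8 proteins, rose from 7.71 to 9.52 TPM (log2 0.52 ± 0.14 with an adjusted p of 0.00433 from the authors' deposited table). VPS18, a subunit of HOPS, rose from 6.38 to 7.57 TPM there (log2 0.47 ± 0.16, adjusted p = 0.0350). Of these 3, RILP kept its call on the TPM scale, and VPS18 also lost its call when fold changes were centred on the median entry (adjusted p = 0.0511 by the Wald test). STX17, the fusion protein of the autophagosome, was not called (log2 0.42 ± 0.23 from the authors' deposited table).

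Among 14 other selective receptors and their kinase, 2 rose and 1 fell, beside 4.12% and 10.4% of all entries. CALCOCO1, an ER and Golgi receptor related to CALCOCO2, fell from 49.4 to 18.8 TPM in the authors' deposited table (log2 -1.19 ± 0.37, adjusted p = 0.0154), and the call held on both other scales. NCOA4, the receptor that delivers ferritin, rose from 38.2 to 49.7 TPM (log2 0.56 ± 0.19 with an adjusted p of 0.0243 from the authors' deposited table). TBK1, the kinase that activates OPTN, rose from 10.5 to 13.0 TPM there (log2 0.54 ± 0.18, adjusted p = 0.0260). The calls of NCOA4 and TBK1 were lost on the TPM scale (adjusted p = 0.185 and 0.207 by the Wald test).

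The 26 other genes of mitophagy and mitochondrial dynamics held 0 calls in the authors' Wald test, and at an unadjusted p under 0.05 there were 8 higher and 1 lower, beside the same 11% and 17.5% of all entries. The smallest adjusted p was that of FBXL4, which restrains mitophagy through BNIP3 and BNIP3L, at 5.93 and 3.36 TPM (log2 -0.62 ± 0.24 with an adjusted p of 0.0634 from the authors' deposited table). BNIP3, the relative of BNIP3L, stood at 70.6 and 56.8 TPM (log2 -0.12 ± 0.19 from the authors' deposited table). The list's median log2 fold change was 0.23, and 13 of 26 genes had a higher mean TPM on day 6. On the TPM scale without mitochondrially encoded genes BCL2L13, FKBP8, MFN2, MARCHF5, HUWE1, PPTC7 and DNM1L were called higher, beside 9.48% of all entries. FBXL4 was called lower on the TPM scale, beside 19.7% of all entries, and after centring on the median entry, beside 11.1%.

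Of 12 lysosomal genes 1 rose and 1 fell, beside 4.12% and 10.4% of all entries. CTSB, the protease cathepsin B, fell from 367 to 178 TPM in the authors' deposited table (log2 -0.85 ± 0.29, adjusted p = 0.0264). NPC1, which exports cholesterol from the lysosome, rose from 19.6 to 31.6 TPM (log2 0.89 ± 0.32 with an adjusted p of 0.0397 from the authors' deposited table), a call lost on the TPM scale (adjusted p = 0.119 by the Wald test). CTSD, cathepsin D, stood at 336 and 329 TPM there (log2 0.12 ± 0.12). Among 11 other membrane and lipid kinase factors the authors' Wald test gave 0 calls. At an unadjusted p under 0.05 there were 1 higher and 1 lower, beside 11% and 17.5% of all entries. The smallest adjusted p among them was that of VCP, the ATPase p97 (log2 0.80 ± 0.30 with an adjusted p of 0.0544 from the authors' deposited table).

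**Figure D5:**
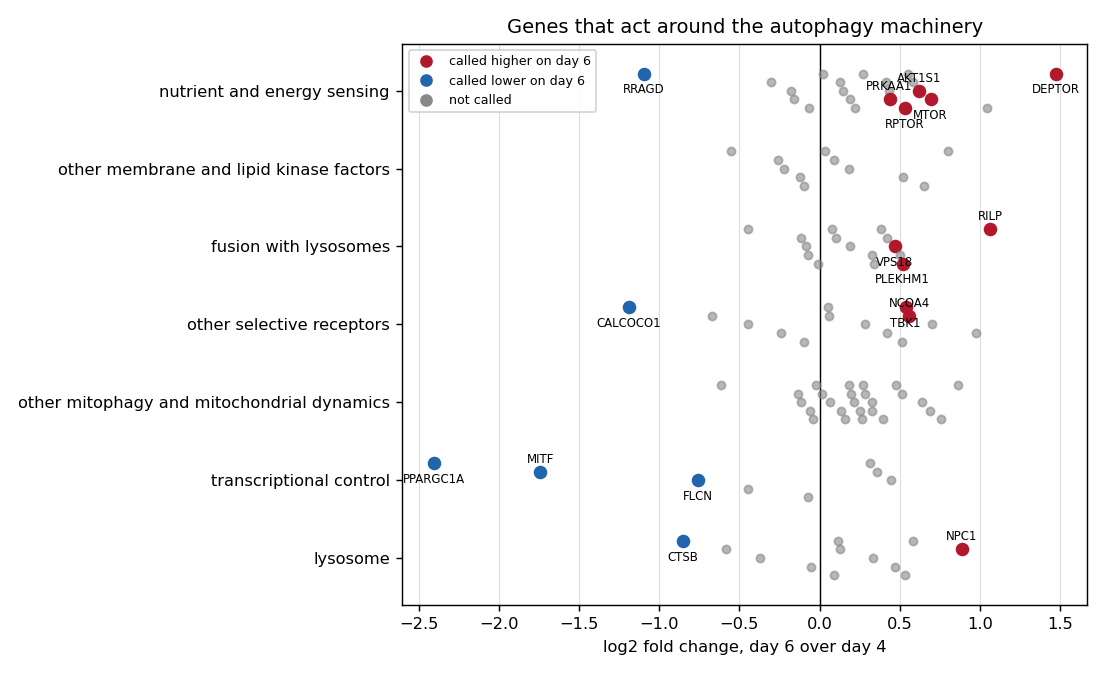
Log2 fold change, day 6 over day 4, of the 108 genes of 7 lists around the machinery, 1 row per list; red and blue points are genes called higher (11) and lower (6), which are named, and points are shifted vertically only to part them. Falls are at FLCN, MITF and PPARGC1A in transcriptional control, RRAGD in nutrient sensing, CALCOCO1 among other receptors and CTSB in the lysosome list, and the 11 rises lie in nutrient sensing (5), fusion (3), other receptors (2) and the lysosome list (1).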

How the data were processed

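Whole luteal messenger RNA of day 4 and day 6 was sequenced as stranded single reads of 100 nt, per the labels. FastQC, DESeq2 and the build ARS-UCD1.2 were used, per the submitters' processing notes, and for aligner, counter, annotation and versions the sources used here name none. Deposited means are taken as TPM because the values of each day sum to 999999. What the authors deposited as log2 fold change equals the log2 ratio of mean TPM after adding 1 in all 19539 entries (tolerance 1e-06). The authors' deposited score is a Wald statistic, beside a log2 standard error, and their p-value is its two-sided normal p in 19485 entries, with Benjamini-Hochberg adjustment over these. The other 54 entries have a deposited p-value of 1 and were left out, HBA among them.

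Computed here with Python 3.11.15, pandas 2.3.3 and scipy 1.17.1 were the log2 fold change (score times standard error), 95% Wald intervals, list summaries and the alternatives. No test across libraries was possible. Only the Wald p and the Benjamini-Hochberg step were tested on simulated data, with fold changes drawn from the deposited standard errors. The members and lists were chosen with earlier results of these data known. The rule for named genes takes every called member and the members of each role with the smallest and the largest adjusted p. It adds the members needed to give the order of mean TPM in each role, and the text names all 40. Of the lists it takes the called genes and, for a list with none, the gene with the smallest adjusted p. Other list genes given for contrast, the ratios between genes and the alternative complexes set side by side were chosen after their values were seen. The available annotation belongs to another build, ARS-UCD2.0, so it served for names and overlaps and no coordinates are given. Of the 40 genes 17 overlap another gene, and only some of these overlaps are named above. No sequences are shown.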

Additional observations from a re-analysis of the deposited data

How the results depend on the processing

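Counts moved with scale and test. The count of members called higher was 7 on the TPM scale without mitochondrially encoded genes, and the count called lower was 8 on the TPM scale, 1 without mitochondrially encoded genes and 1 at an adjusted p under 0.01. For the related lists, 2 were higher and 13 lower on the TPM scale, 30 and 3 without mitochondrially encoded genes, and 4 and 1 at an adjusted p under 0.01. The shares of all entries called higher and lower were 1.53% and 19.7% on the TPM scale. They were 9.48% and 8.19% without mitochondrially encoded genes, and 1.54% and 5.86% at an adjusted p under 0.01. Against a fold of 1.5, and with a t distribution (5 degrees of freedom), the Wald test called 0 members and 0 related genes. At an unadjusted p under 0.05 there were 1 and 5 members, and 3 and 19 related genes, in that order. The t distribution gave 0 calls among all entries, so that setting cannot set these genes apart. The cause of these differences was not tested, beyond the shift that each scale adds to every gene. All of the planned counts stayed within 1.5 times with a minimum mean of 1 TPM and after centring on the median entry.

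The members' median turned to -0.15 on the TPM scale and to -0.13 as the deposited log2 ratio after adding 1. No called member or called related gene changed sign. Among members not called, signs turned on the TPM scale for RB1CC1 (-0.20), PIK3R4 (-0.011), WIPI2 (-0.13), ATG9A (-0.058), ATG5 (-0.019), ATG7 (-0.055), ATG10 (-0.0071), ATG12 (-0.11), ATG4A (-0.12), ATG4C (-0.17), NBR1 (-0.12), PINK1 (-0.10), FUNDC1 (-0.065) and BNIP3L (-0.10). As the deposited ratio they turned for RB1CC1 (-0.16), PIK3R4 (-0.015), WIPI2 (-0.12), ATG9A (-0.048), ATG5 (-0.028), ATG10 (-0.015), ATG12 (-0.11), ATG4A (-0.072), ATG4C (-0.13), NBR1 (-0.11), PINK1 (-0.10), FUNDC1 (-0.065) and BNIP3L (-0.10). Without mitochondrially encoded genes they turned for ATG101 (0.12), PIK3C3 (0.044), WIPI1 (0.016), ATG2A (0.12), ATG16L1 (0.062), GABARAP (0.064) and GABARAPL2 (0.084), and after centring for RB1CC1 (-0.018). No paired analysis was possible because the table holds no values per library, and leaving out single libraries was not run for the same reason.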
